A study of Homo sapiens with 6 samples.

Results

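Both libraries that the sample descriptions call replicate 3, 1 of A549 MOCK and 1 of A549 Rec, were compared with the 4 libraries of replicates 1 and 2, so that 2 of all 6 libraries form the group described. A549, a long-established line from a human lung adenocarcinoma, does not express recoverin (Rec), a calcium sensor of photoreceptors, on its own. A549 Rec was made by introducing a human recoverin cDNA and A549 MOCK by introducing the empty vector, and both are drug-selected populations, so that every comparison concerns 1 population per genotype. All 6 libraries came from 2D cells grown for 6 days in HG-DMEM with biotin, pantothenate, antibiotics, CS and Methocel A4M, with no treatment that separates replicate 3 from the others. The titles number replicates 1 and 2 only, and nothing in the sources says whether the replicates were separate cultures, so that the spread between libraries may be technical. The study's methods name more than 1 sequencing instrument without saying which library ran on which. A batch and a state of the cells therefore cannot be told apart for replicate 3. In such bulk samples, fewer cells of a type and less RNA per cell cannot be told apart either.

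The group was chosen on measured values. The share of TPM on genes of the mitochondrial chromosome (chrM) was 34.5% in replicate 3 of A549 MOCK beside 13.6% and 15.7% in the other 2, and 26.9% in replicate 3 of A549 Rec beside 17.3% and 13.3%. The deviations of same-numbered libraries were also known from earlier work on these data. Across genes they correlated at 0.08, 0.12 and 0.26 for replicates 1, 2 and 3. Everything that follows about replicate 3 is therefore a description with no test of the contrast. TPM (transcripts per 1000000) divides the reads of a gene by its length and sets each library to a sum of 1000000, so that a larger chrM share lowers the value of each nuclear gene. TPM values were rescaled to 1000000 without chrM genes, and the levels below are on that scale unless stated otherwise. A log2 difference is the fitted value of replicate 3 minus replicates 1 and 2 on log2(TPM + 1), with genotype as a covariate and with its standard error (SE). A gene is called higher when both replicate 3 libraries lay above all 4 others, and lower when both lay below them. A fold is the mean TPM of replicate 3 divided by that of replicates 1 and 2.

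The reads recovered from the TPM ranged from 15183490 to 18572167 per library. Both replicate 3 libraries had the fewest (15269737 in A549 MOCK and 15183490 in A549 Rec), slightly under the 15453703 of the next library, and the part of depth in the results was not tested. The recovered reads fell on chrM at 12.9% and 9.48% in replicate 3 and at 4.16% to 5.56% in the others, and the genes above 0 from 23571 to 24492. RCVRN, the recoverin gene, was at 0 in the 3 A549 MOCK libraries and at 389.5, 390.0 and 464 TPM in A549 Rec, as the labels say. Of the keratins looked at in this epithelial line, KRT8 lay between 2929 and 3352 TPM and KRT18 between 3297 and 3988 TPM. KRT7 lay between 682 and 904 TPM, while KRT19 stayed at or under 0.445 TPM. CDKN2A, a gene that A549 has lost, was at 0 in each library. EPCAM lay between 1.34 and 3.53 TPM, and the alveolar genes SFTPB, SFTPC and NKX2-1 stayed at or under 0.496 TPM. Marker lists of other cell types were low. Of 15 leukocyte markers 5 were fitted, with a summed level of 22.8 to 30.5 TPM, and of 10 fibroblast markers COL1A1 alone was fitted, with a summed level of 5.06 to 7.10 TPM. The summed levels were 46.7 to 59.1 for endothelium (2 of 10 fitted), 27.1 to 37.6 for melanocytes (3 of 8), 26.7 to 32.1 for photoreceptors (2 of 13), 44.6 to 58.5 for adipocytes (3 of 7) and 0 to 1.66 for red cells (0 of 8).

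As background, cells under stress change a small number of well-known gene programs. The integrated stress response (ISR) slows protein synthesis through phosphorylation of eIF2 and lets ATF4 and DDIT3 act on genes of amino acid supply and survival. NF-kB drives cytokines and CXC chemokines, heat shock factors drive chaperones, and hypoxia-inducible factors (HIF) drive glycolysis and oxygen supply. Such programs also respond to nutrient supply, cell density and handling, in A549 as in other lines.

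To show what the genes of these programs carry in front of their starts, short stretches of promoter sequence are given for members that lay higher or lower in replicate 3. The sequences are from RefSeq (GRCh38.p14), on the strand of the gene, read from 5′ to 3′, and the capitals mark matches to a motif. The first 6 hold GGNNTTTCC, the form of a kappa-B site, ATF3 holds TGATGNAA, the form of a C/EBP-ATF composite site, and HSPB1 holds GAANNTTC, a pair of heat shock element units. They lie at chr4:73740458-73740506 (plus strand) for CXCL8, chr4:73869295-73869368 (plus) for CXCL1, chr4:74099220-74099292 (minus) for CXCL2, chr7:22727108-22727156 (plus) for IL6, chr11:102317265-102317313 (plus) for BIRC3, chr2:227813743-227813791 (plus) for CCL20, chr1:212565196-212565243 (plus) for ATF3 and chr7:76302471-76302518 (plus) for HSPB1.
CXCL8: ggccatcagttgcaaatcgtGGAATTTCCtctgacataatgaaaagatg
CXCL1: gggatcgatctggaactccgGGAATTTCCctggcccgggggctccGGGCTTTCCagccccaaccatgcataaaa
CXCL2: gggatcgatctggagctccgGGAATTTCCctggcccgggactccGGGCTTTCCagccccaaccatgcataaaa
IL6: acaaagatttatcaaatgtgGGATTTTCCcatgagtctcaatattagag
BIRC3: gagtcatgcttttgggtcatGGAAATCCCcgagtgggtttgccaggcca
CCL20: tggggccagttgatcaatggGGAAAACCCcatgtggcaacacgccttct
ATF3: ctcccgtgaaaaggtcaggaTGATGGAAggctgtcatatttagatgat
HSPB1: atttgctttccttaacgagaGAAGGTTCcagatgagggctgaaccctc
Of the IL6 stretch 10 bases overlap an annotated exon (GENCODE release 44), and of the other stretches 0. In BIRC3 and CCL20 the match is on the opposite strand. The first match began 91 bases before the RefSeq start in CXCL8, 78 in CXCL1, 77 in CXCL2, 72 in IL6 and 182 in HSPB1. CXCL1 and CXCL2, which are close relatives, each held a further match at 53 bases.

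The motifs were searched on both strands of the 250 bases before each start, and a match is a description of letters and not a site of binding. GGNNTTTCC was found in 12 of 19 promoters of the inflammatory list that had a RefSeq entry (63.2%), against 5.48% of 27305 promoters of all genes. TGATGNAA was found in 3 of 21 ISR promoters (14.3%) against 3.19% of all, namely ASNS, ATF3 and CHAC1. GAANNTTC was found in 4 of 12 heat shock promoters (33.3%) against 5.85%, and ACGTG, the core of a HIF site, in 12 of 21 HIF target promoters (57.1%) against 18.7%. These lists were drawn up from known target genes, and nothing is read from the shares.

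Across all genes the difference was broad and mostly small. Of 19037 genes fitted, replicate 3 was higher for 4996 (26.2%) and lower for 2637 (13.9%), so that 65.5% of the called genes were higher. The split depended on the scaling, as it was 51.2% with median-ratio scaling (3796 higher and 3613 lower) and 47.2% with quantile normalization (3413 higher and 3813 lower). Counts of list members under these scalings have these counts of all genes as their background. The median log2 difference of all fitted genes was 0.08 (0.11 in A549 MOCK beside 0.04 in A549 Rec), beside a median SE of 0.12. With replicate 3 of A549 MOCK alone, without that of A549 Rec, 8625 genes were higher and 4368 lower, and with that of A549 Rec alone 6700 and 4283, since 1 library then makes the call. With a difference of at least 2-fold besides, 315 genes were higher (1.65%) and 81 lower (0.425%), of which 212 and 56 had under 10 recovered reads per library on average. Among the 16119 genes with at least 10 reads, 103 were 2-fold higher (0.639%), of which 56 code for proteins, and 25 were 2-fold lower (0.155%), of which 5 code for proteins. Because the group was chosen on these samples, these shares are the background for the counts of members below and nothing is read from them. The genes nearest to the 2-fold limit were sought among called protein-coding genes with a mean TPM of at least 5. They were MST1 (log2 difference 1.00) inside and ORC6 (0.98) outside on the higher side. On the lower side they were NDRG1 (-1.10) inside and CLEC11A (-0.98) outside.

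The difference of replicate 3 was partly alike in both cell lines. Across all fitted genes, which are not independent replicates, the difference in A549 MOCK and that in A549 Rec had a Pearson r of 0.26, and across the 13113 genes with a mean TPM of at least 5 an r of 0.43. This likeness was among the grounds for choosing the group. Of the 103 genes that were 2-fold higher, 71 had the larger difference in A549 MOCK, with a median of 1.44 there beside 1.10 in A549 Rec. Of the 25 that were 2-fold lower, 18 had the larger difference in A549 MOCK (medians of -1.32 and -1.03). The chrM share was also larger in replicate 3 of A549 MOCK than in that of A549 Rec, and its part in these differences was not tested.

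**Figure D1:**
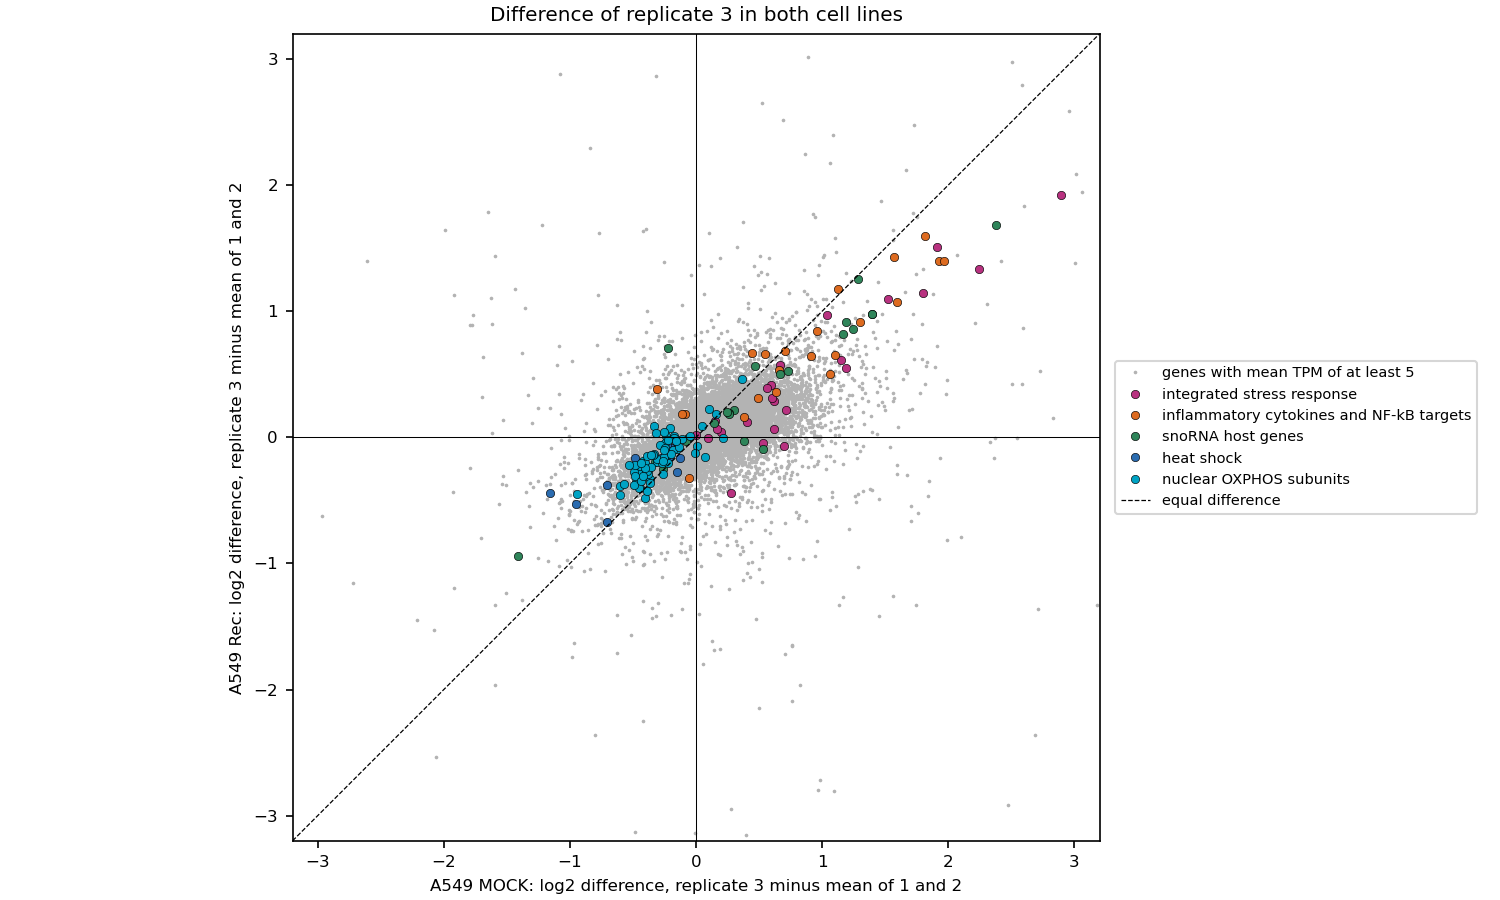
Log2 difference of replicate 3 from the mean of replicates 1 and 2 in A549 MOCK (x axis) and A549 Rec (y axis) for the 13113 genes with a mean TPM of at least 5 (grey points), with members of 5 gene lists in colour and the line of equal difference dashed; 17 genes lie outside the axes. Most stress response, inflammatory and snoRNA host genes lie in the upper right below the dashed line, and most heat shock and OXPHOS genes in the lower left.

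The ISR genes stood out on the higher side, and DDIT3, which encodes the transcription factor CHOP, led them. DDIT3 (ENSG00000175197, GRCh38 chromosome 12, 57516588 to 57521737, minus strand) was at 43.6, 53.9 and 368 TPM in replicates 1, 2 and 3 of A549 MOCK, against 60.2, 58.8 and 228 in those of A549 Rec. Values are given in this order of replicates throughout. Its log2 difference was 2.41 (SE 0.22), a fold of 7.54 in A549 MOCK beside 3.83 in A549 Rec, and both replicate 3 libraries were far above the others. PPP1R15A, the phosphatase subunit that reverses eIF2 phosphorylation, was at 61.3, 64.5 and 239.5 TPM in A549 MOCK against 65.6, 59.8 and 179.8 in A549 Rec, a log2 difference of 1.71 (SE 0.10). CHAC1, an enzyme that breaks down glutathione, was at 6.47, 6.90 and 35.4 TPM against 8.00, 10.9 and 25.1 (1.79, SE 0.23). The replicate 3 libraries lay apart from the rest for these genes, with A549 MOCK the higher of the pair. SESN2, a stress-induced inhibitor of mTORC1, was at 14.2, 13.5 and 50.8 TPM in A549 MOCK against 15.2, 17.9 and 37.8 in A549 Rec.

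Of 27 ISR genes listed, 26 were fitted, 20 were higher (8 of them 2-fold), none was lower and 6 overlapped, with a median log2 difference of 0.47 (0.64 in A549 MOCK beside 0.35 in A549 Rec) beside 0.08 for all genes. ATF4, the transcription factor at the centre of the response, was at 361, 347 and 536 TPM in A549 MOCK against 401, 387 and 525 in A549 Rec, a log2 difference of 0.51 (SE 0.05). Its target TRIB3, a pseudokinase, was at 339, 339.6 and 539.9 against 350.3, 362 and 529 TPM (0.62, SE 0.04). The differences of these regulators were thus smaller than that of DDIT3, while the groups still did not overlap. The other 2-fold members were STC2, a secreted glycoprotein (1.31), GDF15, a stress cytokine (1.00), ASNS, asparagine synthetase (1.12), and ATF3, a transcription factor (1.87). ASNS was at 1.13, 1.08 and 6.29 TPM in A549 MOCK against 1.41, 1.24 and 2.16 in A549 Rec, so that its difference lay mostly in A549 MOCK. ATF3 stayed at or under 6.20 TPM in each library. The serine synthesis genes PHGDH and PSPH, the amino acid transporter SLC7A5, PCK2, CEBPB and DDIT4 overlapped between the groups. ATF4, TRIB3, STC2, ASNS, ATF3 and the overlapping members were named after their values were seen.

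The genes of the unfolded protein response in the endoplasmic reticulum (ER) did not follow the ISR genes. Of 19 fitted, 3 were higher (HERPUD1, XBP1 and EDEM1), 12 were lower and 4 overlapped, with a median of -0.10. SDF2L1, an ER chaperone partner, was at 129, 146 and 90.9 TPM in A549 MOCK against 118, 128 and 108 in A549 Rec (-0.39, SE 0.11). MANF, a secreted ER stress protein, had a difference of -0.34 (SE 0.11), SEC61B, a subunit of the translocation channel, -0.30 (SE 0.04), and DNAJB11, an ER co-chaperone, -0.27 (SE 0.08).

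The inflammatory list had the largest median of the lists, and CXCL8 and CXCL3, chemokines that attract neutrophils, led it. CXCL8 (ENSG00000169429, chromosome 4, 73740506 to 73743716, plus strand) was at 149, 153 and 532 TPM in A549 MOCK against 132, 135 and 406 in A549 Rec, a log2 difference of 1.71 (SE 0.06) and a fold of 3.53 and 3.04. CXCL3, a related chemokine, was at 50.4, 58.3 and 215 TPM against 59.2, 61.6 and 161 (1.68, SE 0.13). CXCL2 was at 171, 161 and 502 TPM against 157, 171 and 347 (1.33, SE 0.12). CXCL1, the most abundant of them, was at 1522, 1507 and 2208 TPM against 1359.8, 1394 and 2178 (0.60, SE 0.04), so that chemokines whose promoters carried the same letters differed by unequal amounts. CXCL1 and CXCL2 are similar in sequence, and neither was among the genes searched for near-identical copies. For the members of this list that the rule named, CXCL8 and CXCL3 among them, no such copy was found.

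The cytokine IL6 and the prostaglandin enzyme PTGS2 (cyclooxygenase-2) lay next to CXCL8 and CXCL3 in the size of their differences. IL6 was at 68.8, 69.4 and 266 TPM in A549 MOCK against 68.6, 62.0 and 174 in A549 Rec (1.67, SE 0.12). PTGS2 was at 267, 269 and 796 TPM against 234, 232 and 630.2, a log2 difference of 1.57 in A549 MOCK and of 1.43 in A549 Rec (SE of the fitted difference 0.04). Both genes lay higher in replicate 3 of A549 MOCK than in that of A549 Rec. TNFAIP3, which shuts NF-kB signalling off again, was at 97.4, 101 and 246 TPM against 90.1, 86.1 and 167 (1.11, SE 0.09). BIRC3, an inhibitor of cell death, was at 38.5, 36.9 and 81.9 TPM against 39.6, 36.5 and 60.4 (0.88, SE 0.11). CCL20, a chemokine for lymphocytes and dendritic cells, was at 24.8, 30.3 and 54.3 TPM against 32.8, 23.8 and 51.0 (0.90, SE 0.15). Of 29 inflammatory genes listed, 26 were fitted, 21 were higher (8 of them 2-fold), 1 was lower and 4 overlapped (CXCL5, SAA1, LCN2 and IL11), with a median of 0.74 (0.81 in A549 MOCK beside 0.67 in A549 Rec). The lower member was C3, a complement protein (-0.13, SE 0.04). TNFAIP3, BIRC3, CCL20, CXCL1, CXCL2 and the overlapping members were named after their values were seen. The interferon-stimulated genes lay near all genes, with 6 of 23 higher (beside 26.2% of all genes), 2 lower and a median of 0.17. Their median relative to that of all genes was 0.088. The residual standard deviation of single members in the fit had a median of 0.15. IRF1, a transcription factor of that response, had a difference of 0.73 (SE 0.13).

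AREG and EREG, ligands of the epidermal growth factor receptor, lay beside these genes, and its other ligands are not given here. AREG, which encodes amphiregulin, was at 19.0, 17.2 and 79.1 TPM in A549 MOCK against 22.9, 23.7 and 65.2 in A549 Rec (1.76, SE 0.14). EREG, which encodes epiregulin, was at 19.9, 16.2 and 65.0 TPM against 20.5, 18.1 and 50.0 (1.56, SE 0.14). Both were about as far from replicates 1 and 2 as CXCL8 and CXCL3, and farther than CXCL1 and CXCL2. For both, no library of replicate 3 overlapped the others.

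The immediate early genes, which answer growth factors and stress within minutes, were higher in 15 of 22 fitted and lower in none (median 0.30). JUN, a subunit of AP-1, was at 24.1, 24.7 and 40.7 TPM in A549 MOCK against 20.6, 17.3 and 33.9 in A549 Rec (0.76, SE 0.09), and KLF6, a zinc finger factor, had a difference of 0.79 (SE 0.09). FOS, the partner of JUN in AP-1, overlapped and went opposite ways, at 10.4, 10.2 and 5.04 TPM in A549 MOCK against 8.90, 9.94 and 12.2 in A549 Rec. FOS was named after its values were seen. Of the 24 fitted targets of YAP and TAZ, the coactivators of the Hippo pathway, 16 were higher and 0 lower (median 0.31). With median-ratio scaling 14 were higher and 2 lower, and with quantile normalization 13 and 1. The matricellular members CCN2 and CCN1 of this list were 2-fold higher (1.23, SE 0.14, and 1.15, SE 0.09). CCN1 was at 25.9, 26.7 and 67.2 TPM in A549 MOCK against 23.1, 24.1 and 47.2 in A549 Rec. Of 25 p53 targets, 14 were higher and 2 lower (median 0.26). PMAIP1, which encodes the cell death protein NOXA, was at 18.8, 15.5 and 48.2 TPM against 18.6, 13.8 and 39.0 (1.34, SE 0.14), and GADD45A, a growth arrest gene, at 24.2, 25.9 and 69.6 against 27.4, 30.3 and 55.4 (1.18, SE 0.13). SESN2 and GDF15 stand in both the p53 and the ISR list, and they are counted in each.

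**Figure D2:**
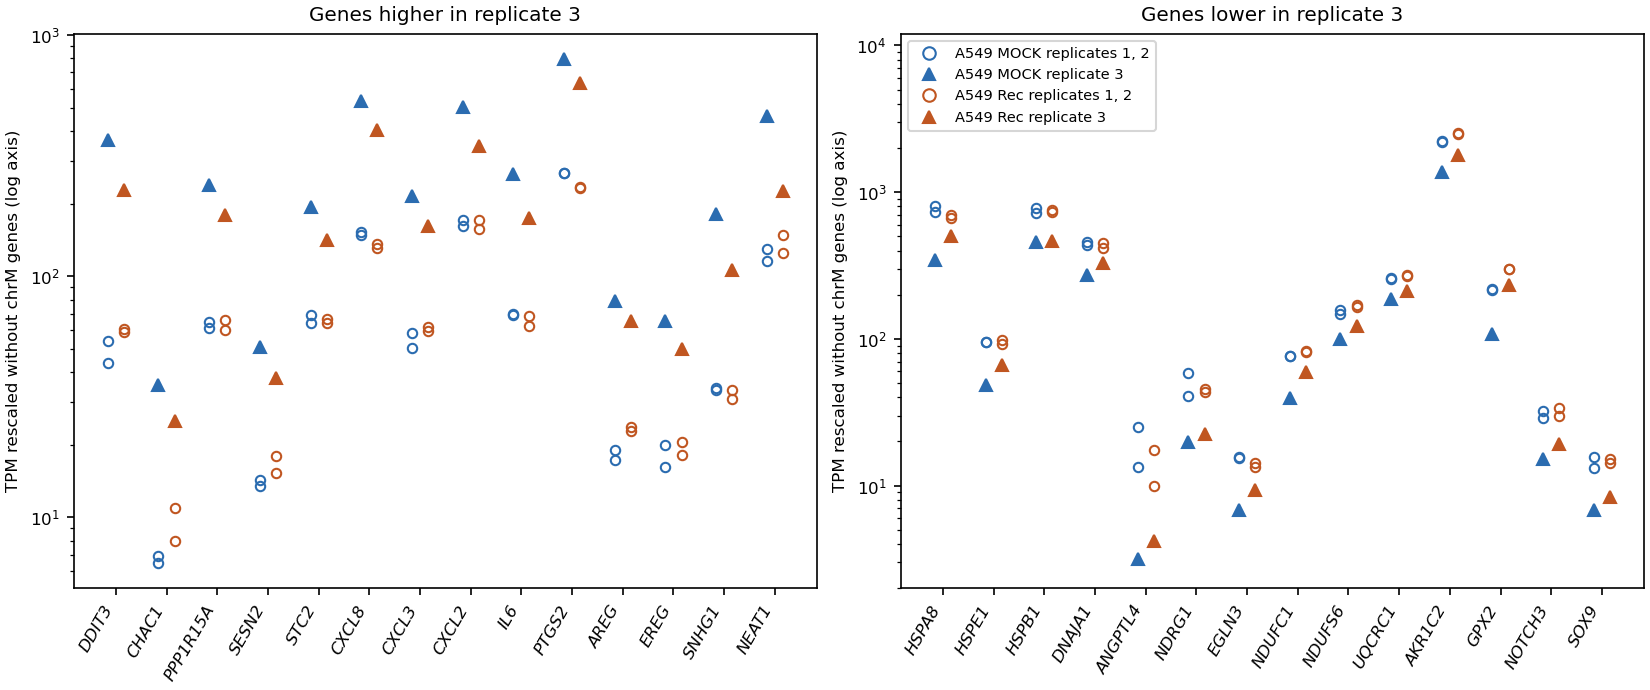
Rescaled TPM (log axis) of named genes that were higher (left) or lower (right) in replicate 3, 1 symbol per library, with open circles for replicates 1 and 2 and filled triangles for replicate 3 of A549 MOCK (blue) and A549 Rec (orange). In the left panel the triangles stand above all circles of their gene, with A549 MOCK the higher; in the right panel they stand below the circles, except that replicate 3 of A549 Rec overlaps A549 MOCK for GPX2 (232 against 217 and 214 TPM).

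Noncoding transcripts that carry small nucleolar RNAs in their introns formed another group on the higher side. The spliced transcripts of such snoRNA host genes are known to be short-lived. SNHG1 (ENSG00000255717, chromosome 11, 62851988 to 62855914, minus strand) was at 34.2, 33.6 and 180.4 TPM in A549 MOCK against 30.9, 33.7 and 106 in A549 Rec (2.03, SE 0.15), a fold of 5.32 and 3.27. SNHG8 was at 84.4, 77.2 and 214 TPM against 85.0, 89.0 and 172 (1.19, SE 0.10), and SNHG15 at 9.95, 12.7 and 31.3 against 11.8, 10.9 and 23.4 (1.19, SE 0.14). Of 25 fitted, 16 were higher (6 of them 2-fold), 2 were lower and 7 overlapped, with a median of 0.26. The lower members, named after their values were seen, were DANCR (-0.26) and SNHG9, at 15.4, 11.8 and 4.45 TPM in A549 MOCK against 13.6, 13.6 and 6.60 in A549 Rec (-1.18, SE 0.16). The list therefore did not move as one.

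RNAs that are held in the nucleus were higher in 14 of 21 and lower in 1, with a median of 0.62 in A549 MOCK beside 0.21 in A549 Rec. NEAT1, the scaffold of paraspeckles, was at 115, 129 and 461 TPM in A549 MOCK against 149, 125 and 226 in A549 Rec (1.32, SE 0.26). OGT, whose transcript keeps a regulated intron, was at 50.4, 53.7 and 131 TPM against 58.6, 55.5 and 74.8 (0.85, SE 0.20). CCNL2, a cyclin of splicing speckles, had a difference of 0.64 (SE 0.12). MALAT1, the abundant speckle RNA named after its values were seen, was at 99.2, 116 and 211 TPM in A549 MOCK but at 112, 102 and 108 in A549 Rec, so that the groups overlapped. For this list the difference lay more in A549 MOCK than in A549 Rec. Long genes rich in introns were higher in 2 of 14 and lower in 4 (median -0.10). With median-ratio scaling 0 were higher and 7 lower, and with quantile normalization 0 and 8. TPM per gene does not separate spliced from unspliced RNA, so that nothing is read from these counts on unspliced RNA.

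On the lower side, the heat shock list had the lowest median over both cell lines of the lists of pathways and cell states. HSPA8, the constitutive HSP70 of the cytosol, was at 807, 737 and 344 TPM in A549 MOCK against 699.9, 666 and 504 in A549 Rec (-0.80, SE 0.16). HSPB1, the small heat shock protein HSP27, was at 725, 779 and 459.9 TPM against 728, 750.1 and 463 (-0.69, SE 0.04), with nearly the same difference in both cell lines. HSPE1, the mitochondrial cochaperonin, was at 94.7, 95.4 and 48.6 TPM against 98.5, 92.7 and 65.9 (-0.74, SE 0.10). These levels did not overlap between the groups. DNAJA1, an HSP40 co-chaperone, was at 454, 439 and 273 TPM against 447, 414 and 330.3 (-0.54, SE 0.08). Of 15 heat shock genes listed, 13 were fitted, 12 were lower and 0 higher, with a median of -0.31 (-0.38 in A549 MOCK beside -0.25 in A549 Rec). HSPD1, the partner of HSPE1 in the mitochondrial chaperonin, overlapped (-0.15, SE 0.06) and was named after its values were seen. The testis-type HSP70 gene HSPA2, which the list does not hold, was at 61.8, 63.8 and 24.4 TPM against 53.1, 52.3 and 35.8 (-0.94, SE 0.17).

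Of 24 fitted HIF target genes, 5 were higher, 11 lower and 8 overlapped, beside 26.2% higher and 13.9% lower of all genes. Their median was -0.10, or -0.18 relative to that of all genes. ANGPTL4, a secreted inhibitor of lipoprotein lipase, was at 13.3, 25.2 and 3.18 TPM in A549 MOCK against 17.4, 9.87 and 4.19 in A549 Rec (-1.83, SE 0.34). NDRG1, a stress-responsive cytoplasmic protein, was at 40.8, 58.4 and 19.9 TPM against 45.6, 43.7 and 22.5 (-1.10, SE 0.15). EGLN3, a prolyl hydroxylase that marks HIF for breakdown, was at 15.4, 15.6 and 6.80 TPM against 13.5, 14.2 and 9.39 (-0.80, SE 0.14). VEGFA, the vascular growth factor, went the other way, at 33.0, 32.9 and 69.9 TPM against 31.3, 30.8 and 45.3 (0.80, SE 0.12). CA9, BHLHE40, ADM and PDK1 were the remaining higher members.

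Genes of energy metabolism were lower by small amounts. Of 21 glycolysis genes 16 were lower, 4 overlapped and 1, the glucose transporter SLC2A3, was higher (median -0.20). Their leading members ALDOC (-0.34, SE 0.10), the lactate exporter SLC16A3 (-0.32, SE 0.07), LDHB (-0.31, SE 0.07) and the glucose transporter SLC2A1 (-0.30, SE 0.06) all differed by less than 2-fold. SLC2A1 was at 123, 122 and 106 TPM in A549 MOCK against 120.4, 124 and 92.4 in A549 Rec. Of 75 nuclear genes for subunits of oxidative phosphorylation (OXPHOS), 73 were fitted, 50 were lower and 4 were higher, with a median of -0.31 in A549 MOCK beside -0.15 in A549 Rec. NDUFC1, a subunit of complex I, was at 76.8, 76.0 and 39.3 TPM against 82.7, 81.1 and 59.8 (-0.69, SE 0.11). NDUFS6, also of complex I, was at 158, 148 and 100.3 TPM against 165, 170.1 and 122 (-0.53, SE 0.05), and ATP5F1D, of ATP synthase, at 139.8, 127 and 87.3 against 128, 135 and 100.2 (-0.50, SE 0.07). The 4 higher members were NDUFA13, NDUFA11, UQCR11 and COX7A2, of which the first pair stayed at or under 10.5 TPM.

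The OXPHOS subunits encoded on chrM, part of what chose the group, went the opposite way from the nuclear ones. Relative to the nuclear total, MT-CO1, a subunit of complex IV, was at 20316, 23905 and 64912 in A549 MOCK against 27342, 20043 and 45047 in A549 Rec. MT-ND6, the complex I gene on the other strand of chrM, was at 3424, 3931 and 9484 against 4324, 3314 and 7802, and MT-RNR2, the large ribosomal RNA, at 17223, 20334 and 68839 against 22357, 16658 and 50139.5. MT-ATP8 had the smallest difference of the 13 coding genes, at 109.9, 193 and 226 against 164, 118 and 151. A copy of chrM sequence in the nuclear genome followed them. MTATP6P1, an unprocessed pseudogene (chromosome 1, 633696 to 634376), was at 3033, 3653 and 10995 TPM in A549 MOCK against 4096.5, 2942 and 6838 in A549 Rec. Reads of chrM and of such copies may not be told apart, and rescaling without chrM genes left this gene in the total. These genes were named after their values were seen.

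**Figure D3:**
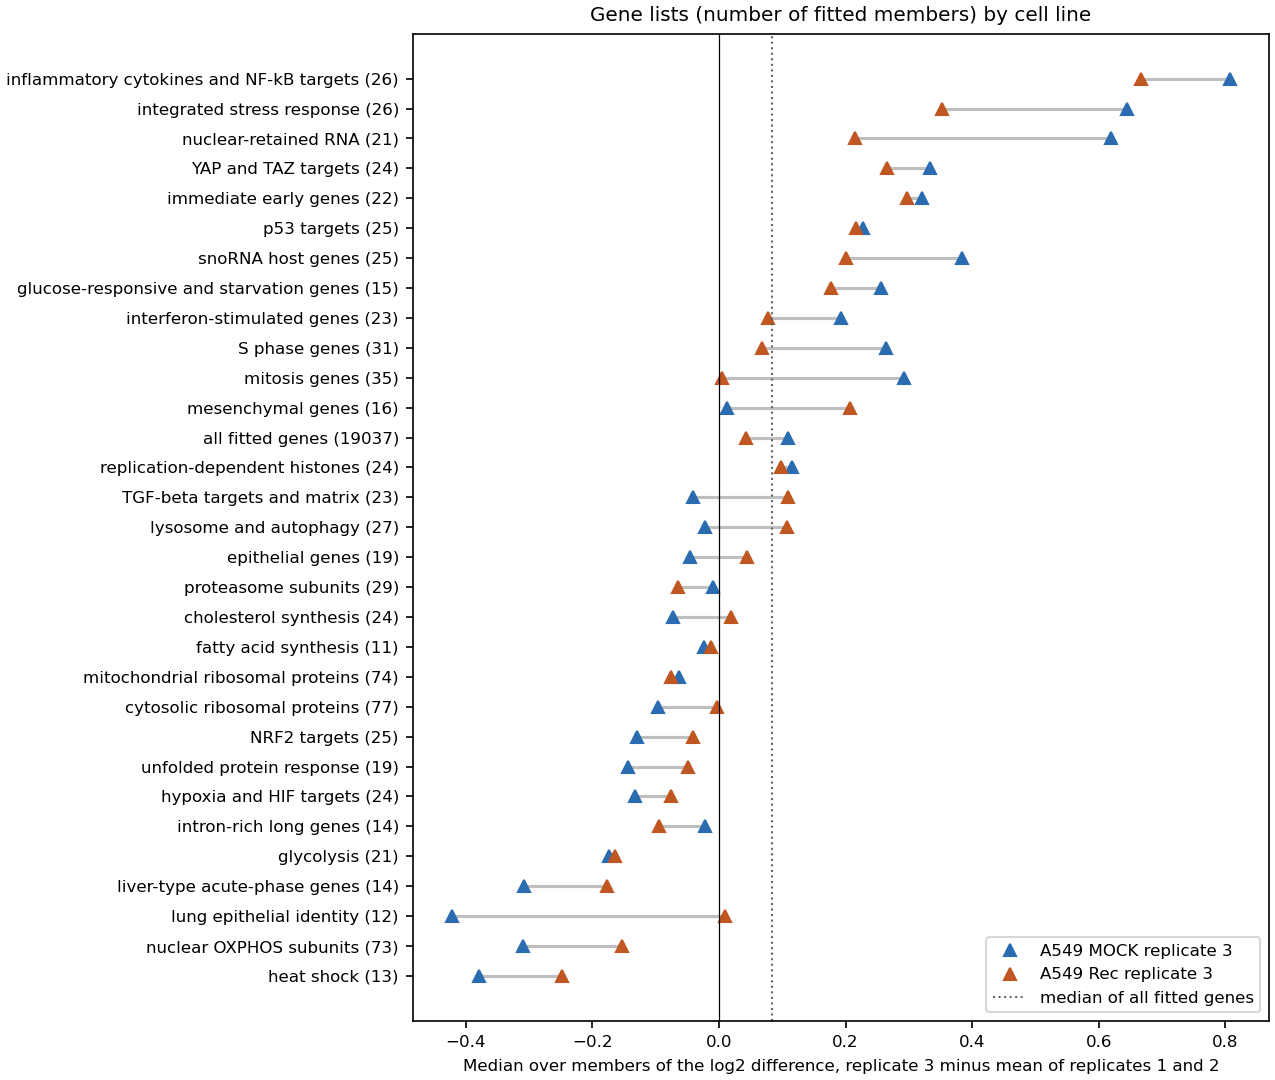
Median over the fitted members of each gene list (number in brackets) of the log2 difference of replicate 3 from the mean of replicates 1 and 2, for A549 MOCK (blue) and A549 Rec (orange), with the median of all 19037 fitted genes dotted. The inflammatory list stands at 0.81 and 0.67 and the heat shock list at -0.38 and -0.25, while most lists lie within 0.3 of 0.

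The protein synthesis lists were mixed. In the fifth of genes with the highest mean TPM, among genes with at least 10 reads, 31.4% were lower and 24.0% higher. Of 77 cytosolic ribosomal protein genes 31 were lower and 12 higher (median -0.05), with 34 lower and 5 higher under median-ratio scaling and 28 lower and 19 higher under quantile normalization. RPL38 was at 213, 219 and 123 TPM in A549 MOCK against 212, 221 and 149 in A549 Rec (-0.67, SE 0.07), and RPS15 at 633, 664 and 451 against 631, 672 and 450.4 (-0.53, SE 0.04). RPS3A lay the other way, at 829 and 763 TPM in replicate 3 of A549 MOCK and A549 Rec beside 531 to 632 in the others (0.45, SE 0.04). Ribosomal protein genes have many pseudogenes, so that their reads may be split. Of 74 mitochondrial ribosomal protein genes 27 were lower and 5 higher (median -0.05), led by MRPL41 (-0.56, SE 0.07). Of 29 proteasome subunits 12 were lower and 4 higher (median -0.03), with 15 lower and 0 higher under median-ratio scaling and 11 lower and 3 higher under quantile normalization.

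Targets of NRF2, the regulator of antioxidant genes that is active in A549 because its inhibitor KEAP1 is mutant, were lower in 11 of 25 and higher in 6 (median -0.06). AKR1C2, an aldo-keto reductase, was at 2246, 2204 and 1371 TPM in A549 MOCK against 2502, 2522 and 1779 in A549 Rec (-0.60, SE 0.05), and its relative AKR1B10 at 2968, 2777 and 1831 against 3388, 3207 and 2534 (-0.51, SE 0.07). GPX2, a glutathione peroxidase, was at 217, 214 and 108 TPM against 300.1, 298 and 232 (-0.67, SE 0.13), and was lower within each cell line while the groups overlapped across them. OSGIN1, an oxidative stress response gene, was higher (0.47, SE 0.09). NQO1, the classical target, lay between 1491 and 1655 TPM in all libraries and overlapped.

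Cell cycle genes differed by small amounts. Of 31 S phase genes 16 were higher and 3 lower, with a median of 0.26 in A549 MOCK beside 0.07 in A549 Rec, and of 35 mitosis genes 11 were higher and 3 lower, with medians of 0.29 and 0.00. The higher share of the mitosis genes lay near the 26.2% of all genes, and their median relative to that of all genes was 0.064, or -0.038 without A549 MOCK replicate 3. For the S phase genes the relative median was 0.083, or 0.025 without A549 MOCK replicate 3. With median-ratio scaling 11 S phase genes were higher and 4 lower. E2F1, the transcription factor of S phase entry, was at 30.3, 30.0 and 51.5 TPM in A549 MOCK against 31.8, 29.1 and 44.6 in A549 Rec (0.65, SE 0.08). RRM2, the ribonucleotide reductase subunit, was at 35.9, 30.8 and 50.7 TPM against 30.3, 27.5 and 41.6 (0.55, SE 0.08). HMMR, a spindle protein, had a difference of 0.55 (SE 0.09) and CENPE, a kinetochore motor, of 0.52 (SE 0.13). Of 24 fitted histone genes that depend on replication, 6 were higher and 1 lower (median 0.08), a higher share near that of all genes. The study's methods name a kit that isolates poly(A) mRNA, and the part of this step in the histone values was not tested.

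Genes of lung identity were on the lower side in A549 MOCK. Of 12 fitted genes of lung epithelial identity, 5 were lower and 2 higher, with a median of -0.42 in A549 MOCK beside 0.01 in A549 Rec. MUC5B, an airway mucin, was at 95.2, 114 and 66.8 TPM in A549 MOCK against 113, 122 and 77.9 in A549 Rec (-0.61, SE 0.08). AQP3, a water and glycerol channel, was at 10.5, 10.7 and 4.52 TPM against 11.7, 13.4 and 8.19 (-0.82, SE 0.14). Both were lower in each cell line. Of 19 epithelial genes 4 were higher and 5 lower, beside 26.2% higher and 13.9% lower of all genes. The tight junction genes CLDN1 and CLDN2 went opposite ways, CLDN1 at 25.7, 31.1 and 58.0 TPM against 30.4, 28.7 and 53.7 (0.93, SE 0.09), and CLDN2 at 235 in replicate 3 of A549 MOCK beside 495 and 481, and at 458 in that of A549 Rec (-0.65, SE 0.17). Among 16 mesenchymal genes, 5 were higher and 4 lower, with the repressor ZEB1 at 0.58 (SE 0.11) and the repressor SNAI1 at -0.55 (SE 0.09). The median of the mesenchymal genes relative to that of all genes was 0.042. Of 23 TGF-beta list genes, 8 were higher and 8 lower, beside 26.2% higher and 13.9% lower of all genes. Their median relative to that of all genes was -0.025. The leading gene of this list, the urokinase PLAU, was at 222, 237 and 415 TPM against 226, 233 and 392 (0.81, SE 0.05).

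For lists of lipid synthesis and of lysosomes, the counts were 9 lower and 4 higher of 24 for cholesterol synthesis (led by CYP51A1, -0.73, SE 0.12), 4 lower and 3 higher of 11 for fatty acid synthesis, and 4 lower and 11 higher of 27 for lysosome and autophagy (led by NPC1, the cholesterol exporter of lysosomes, 0.54, SE 0.05). With median-ratio scaling the lysosome and autophagy genes were 6 higher and 6 lower, beside 3796 higher and 3613 lower of all 19037 genes. The higher share of the fatty acid genes lay near the 26.2% of all genes. Of 15 genes that respond to glucose or starvation 5 were higher and 2 lower, shares near the 26.2% and 13.9% of all genes. Their median was 0.21, or 0.13 relative to that of all genes. With median-ratio scaling 4 were higher and 3 lower, and with quantile normalization 3 and 3. Among these 15 genes were the glucocorticoid-induced TSC22D3 (1.06, SE 0.11) and the insulin receptor substrate IRS2 (-0.54, SE 0.10). Of 4 fitted metallothionein list genes, 1 was lower and none higher. Of 14 fitted liver-type acute-phase genes 4 were lower and 1 higher (median -0.21). Their fibrinogen member FGB was at 58.5, 54.6 and 36.9 TPM in A549 MOCK against 92.9, 96.1 and 61.9 in A549 Rec (-0.60, SE 0.05), lower in replicate 3 of each cell line.

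The remaining protein-coding genes with the largest differences on the lower side were of several kinds. SOX9, a transcription factor of lung progenitors, was at 13.2, 15.7 and 6.85 TPM in A549 MOCK against 14.3, 15.2 and 8.38 in A549 Rec (-0.86, SE 0.11). NOTCH3, a Notch receptor, was at 28.8, 32.1 and 15.3 TPM against 29.8, 33.8 and 19.3 (-0.82, SE 0.10). CLEC11A, a secreted growth factor, was at 29.9, 33.7 and 16.7 TPM against 32.1, 39.0 and 16.4 (-0.98, SE 0.10). In each of these the groups did not overlap. CPLX2, a complexin, was at 263, 266 and 113 TPM against 327, 339 and 219.9 (-0.91, SE 0.13), and TNFRSF10D, a decoy receptor for TRAIL, at 51.0, 53.6 and 19.9 against 49.4, 49.2 and 36.3 (-0.89, SE 0.20). CNFN (-0.94), CDH16 (-0.87) and FAM166A (-0.82) complete them. Genes with a near-identical copy elsewhere in the genome or on an alternate sequence were erratic and are uncertain. RNH1, the ribonuclease inhibitor, was at 2.62, 17.9 and 50.6 TPM in A549 MOCK against 3.25, 2.04 and 40.8 in A549 Rec, and FRG1 at 17.6, 8.18 and 20.1 against 14.2, 0.347 and 24.8. VAMP7 was at 14.3, 25.1 and 13.3 TPM against 18.7, 18.9 and 1.27, and NAPRT, LPCAT1, GOLGA8A and HSD17B7 carry the same limit.

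The difference of replicate 3 also went with properties of the transcripts. From the fifth of genes with the lowest GC content of the longest transcript to the fifth with the highest, the median log2 difference went from 0.12 to -0.0041, and the share of lower genes from 9.53% to 24.5%. From the fifth with the lowest mean TPM to the highest, the median went from 0.13 to -0.02, and the share of lower genes from 8.31% to 31.4%. With exon length the median went from 0.04 in the shortest to 0.09 in the longest. The part of level in the counts of lists of abundant genes, such as ribosomal, proteasome and NRF2 genes, was not tested. The shifts of the median were small beside the list medians of the inflammatory, ISR and heat shock genes, and their part in those medians was not tested.

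**Figure D4:**
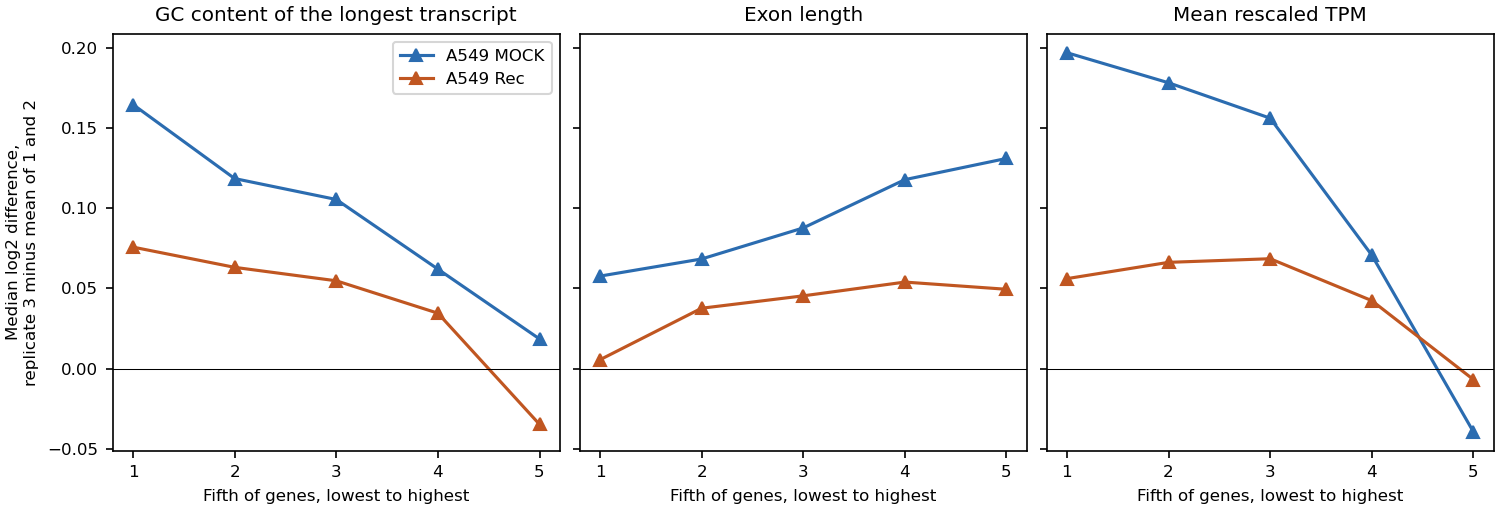
Median log2 difference of replicate 3 from the mean of replicates 1 and 2 in 5 equal bins of genes ordered by GC content, exon length and mean rescaled TPM, for A549 MOCK (blue) and A549 Rec (orange). Medians run from 0.16 to 0.02 over GC content and from 0.20 to -0.04 over mean TPM in A549 MOCK, and span less in A549 Rec.

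A limma interaction term compared the difference of replicate 3 between both genotypes. It rests on the values that chose the group, so that its counts are given as a description and nothing is read from them on likeness or unlikeness of the cell lines. The single replicate 3 library of each cell line was assumed to vary like the others, and the residual spread came from replicates 1 and 2 alone. Of 19037 genes, 1 passed an adjusted p of 0.05 after Benjamini-Hochberg correction (0.00525%), and 2185 had an unadjusted p under 0.05. The count was 0 when any single library of replicates 1 and 2 was left out (1534 to 1799 at an unadjusted p under 0.05), 355 with voom on the recovered reads and 1439 with no filter on low TPM. The 1 gene is a processed pseudogene with few reads, and its difference was the larger in A549 Rec. For the comparison of A549 Rec with A549 MOCK, which the choice of the group did not use, limma with replicate 3 as a covariate called 1 differentially expressed gene at an adjusted p under 0.05 and a fold of at least 2 (0.00525%), which was RCVRN, and 1145 genes had an unadjusted p under 0.05. Without replicate 3 as a covariate the gene count was again 1, and 505 genes had an unadjusted p under 0.05.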

How the data were processed

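The 6 RNA sequencing libraries, 3 of A549 MOCK and 3 of A549 Rec in 2D culture, were grouped and numbered by the sample labels. The authors mapped paired reads to GRCh38 and deposited TPM per gene, chrM genes included; per the submitters' processing notes the tools were FastQC 0.11.7, Trimmomatic 0.38, HISAT2 2.1.0 and featureCounts 1.6.3. Those notes list a mouse build, but the gene IDs and coordinates in the table are human GRCh38. The annotation release and the strand setting are not given in the sources used here, so that reads of a gene and of an antisense partner may not be told apart.

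TPM was rescaled to 1000000 without chrM genes, and genes that reached a rescaled TPM of 1 in 2 or more libraries were fitted with limma 3.58.1 in R 4.3.3 (trend) on log2(TPM + 1), a scale that understates the change of low genes. The contrast of replicate 3 had genotype as a covariate and is given with no p-value. Whole reads were recovered from the TPM steps for 29900 genes (within 0.01 of whole); the gene length was taken so as to make them whole, so that wholeness is no check. They gave a median of 15463896 reads per library. The scripts were tested on simulated data. Gene lists were described by counts and medians with no set test. The members and the 40 lists were chosen with earlier results of these data known. The named genes were the 12 protein-coding genes with the largest difference in each direction and up to 4 per list, with a mean TPM of at least 5, RCVRN, genes of the interaction and those nearest the limit. Near-identical copies (80% of the transcript at 98% identity) were sought with minimap2 2.31-r1302. The alternatives were a pseudocount of 0.1, no filter, a mean TPM of at least 5, chrM genes in the total, median-ratio scaling, quantile normalization, no trend, no covariate, the replicate block, a 1.5-fold limit, no fold limit and leaving out each library. A voom-weighted limma fit to the recovered reads and a minimum of 10 reads were added after seeing the data.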

Additional observations from a re-analysis of the deposited data

Results flagged for a closer look

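For 1 gene the limma interaction term between replicate 3 and genotype passed its threshold; it rests on the values that chose the group, so that it is given as a description and nothing is read from it. ENSG00000279483, a processed pseudogene on chromosome 7 (137513859 to 137513933), was at 12.3, 12.8 and 10.9 TPM in replicates 1, 2 and 3 of A549 MOCK, against 51.6, 47.4 and 0 in those of A549 Rec. The log2 interaction was -5.47 (A549 Rec minus A549 MOCK). The recovered reads behind it were 4, 4 and 3 in A549 MOCK against 16, 18 and 0 in A549 Rec, and the gene fell below the minimum of 10 reads when that filter was applied.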

How the results depend on the processing

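The 2-fold counts fell to 103 higher and 25 lower with at least 10 reads and to 97 and 25 with a mean TPM of at least 5, and rose to 590 and 175 with a pseudocount of 0.1, 548 and 178 with voom and 1032 and 311 at 1.5-fold. With chrM genes in the total, the median of all genes moved to -0.17, and 1264 genes were higher and 7796 lower (128 and 151 at 2-fold), while FADS1 (-0.069), STAT2 (-0.036) and PPARG (-0.017) changed sign. Quantile normalization gave 131 genes 2-fold lower. Without A549 Rec replicate 3 the counts were 8625 higher and 4368 lower (891 and 213 at 2-fold) and without A549 MOCK replicate 3 they were 6700 and 4283 (424 and 192), since a single library then decides a call; leaving out each library gave 5508 to 8625 higher, 3001 to 4368 lower, 348 to 891 and 98 to 213 at 2-fold.

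The interaction called 1439 genes with no filter and 355 with voom, and 0 without trend (1889 at an unadjusted p under 0.05), with at least 10 reads (2103) and when a library of replicates 1 and 2 was left out (0 to 0, with 1534 to 1799 unadjusted). A549 Rec against A549 MOCK called 7 genes without trend and 3 with voom. Over the replicate numbers, the deviations of same-numbered libraries correlated at 0.08, 0.12 and 0.26 across genes, so that the numbers are not shown to pair the samples; with the replicate block 1 gene was called (976 unadjusted).

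Relative to the median of all genes, list medians moved under quantile normalization to -0.23 (OXPHOS), -0.022 (cytosolic ribosomal), -0.16 (glycolysis), -0.034 (fatty acid), -0.10 (unfolded protein response), -0.31 (heat shock), -0.0014 (NRF2), 0.34 (immediate early), -0.033 (proteasome) and 0.075 (lysosome). Leaving out each library gave ranges of -0.42 to -0.20 (OXPHOS), -0.21 to -0.046 (cytosolic ribosomal), -0.29 to -0.21 (glycolysis), -0.18 to -0.024 (cholesterol), -0.13 to -0.055 (fatty acid), 0.31 to 0.53 (ISR), -0.25 to -0.092 (unfolded protein response), -0.49 to -0.29 (heat shock), -0.24 to -0.084 (NRF2), -0.038 to 0.18 (mitosis), -0.15 to 0.066 (TGF-beta), -0.10 to 0.16 (mesenchymal), -0.53 to -0.034 (lung identity), -0.13 to 0.065 (lysosome), 0.17 to 0.51 (nuclear-retained), -0.18 to 0.27 (leukocyte markers) and -0.16 to 0.0021 (epithelial, which changed sign without A549 MOCK replicate 3). The cause of these shifts was not tested. Of 2113 values of named genes over the alternatives, 1727 moved by less than the residual standard deviation of the gene in the main fit.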
